A study of Homo sapiens with 4 samples.

Results

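The loops of RNA polymerase II (RNAPII) at 10 immediate early transcription factor genes were examined in HepG2, a human hepatocellular carcinoma cell line, before and after a G-quadruplex (G4) ligand. The genes were JUN, JUNB, JUND, FOS, FOSL2, ATF3, EGR1, IER2, KLF6 and KLF10, which are 10 of the 20020 protein-coding genes of the annotation. A DNA loop was assigned to a gene when an anchor touched the gene body or the 20 kb on either side of it. By this rule 49 of the 66417 loops of mock-treated cells and 17 of the 18778 loops of pyridostatin-treated cells belonged to the 10 genes, and 0 loops were assigned to more than 1 of them.

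HiChIP joins DNA fragments that lie close together in intact nuclei and then enriches the joined fragments with an antibody, here one against POLR2A, the largest subunit of RNAPII. Mock cells received water and the other cells received 20 µM pyridostatin (PDS), a small molecule that binds G4 structures, in both cases for 24 h. Each condition had 2 replicates, and the deposited data held 1 combined loop list per condition. Each loop had a pair of anchors and a count of paired-end tags (PETs), the sequenced read pairs that joined the anchors. Neither list held a count below 3 PETs, so that a loop absent from 1 list, called unlisted here, may still have had up to 2 PETs in that condition. The mock list held 254647 PETs and the PDS list 67001 PETs, and these are sums over listed loops and not library depths. With 1 list per condition no spread between replicates could be measured, so every difference between conditions is given without a test, and the 95% intervals are Wilson intervals that cover counting error only. Markers of the labelled cell type were looped: 9 of 9 hepatocyte genes had mock loops within the same window (5 to 45, median 13), whereas 5 of 9 marker genes of blood, muscle and neurons had any (0 to 8, median 2). Of all 20007 protein-coding genes 80.9% had a mock loop, with a median of 4, so having a loop was common at any gene.

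Immediate early genes are transcribed within minutes of a growth or stress signal from factors already present in the cell, and their products pass the signal on to later genes. JUN and FOS family proteins pair through leucine zippers to form the AP-1 transcription factor, ATF3 pairs with JUN proteins, EGR1, KLF6 and KLF10 bind GC-rich DNA through zinc fingers, and IER2 is a small nuclear protein that regulates transcription. Sites for CREB, serum response factor and AP-1 itself are known from promoters of such genes, and RNAPII often waits just downstream of their start sites. In liver cells JUN and FOS proteins are known for their roles in regeneration and in tumour growth.

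The reference promoters of 4 genes are shown because their start sites lay inside loop anchors and because they carry the sites for which the family is known. They run over the 250 bases before the RefSeq start site (GRCh38.p14). Capitals mark the cyclic AMP response element (CRE) TGACGTCA, its core TGACG and the CArG box bound by serum response factor, on either strand.
EGR1 promoter, chr5:138465229-138465478, plus strand: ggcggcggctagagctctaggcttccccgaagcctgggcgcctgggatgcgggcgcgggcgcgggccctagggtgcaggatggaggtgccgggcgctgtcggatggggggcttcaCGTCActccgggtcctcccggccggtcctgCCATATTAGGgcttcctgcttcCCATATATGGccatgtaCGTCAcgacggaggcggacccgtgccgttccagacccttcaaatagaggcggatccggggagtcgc
FOS promoter, chr14:75278578-75278827, plus strand: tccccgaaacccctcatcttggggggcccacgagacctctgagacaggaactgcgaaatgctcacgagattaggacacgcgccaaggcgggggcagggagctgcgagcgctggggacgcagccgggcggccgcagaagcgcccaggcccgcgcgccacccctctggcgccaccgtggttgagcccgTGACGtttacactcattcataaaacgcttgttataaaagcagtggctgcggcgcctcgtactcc
JUN promoter, chr1:58784048-58784297, minus strand: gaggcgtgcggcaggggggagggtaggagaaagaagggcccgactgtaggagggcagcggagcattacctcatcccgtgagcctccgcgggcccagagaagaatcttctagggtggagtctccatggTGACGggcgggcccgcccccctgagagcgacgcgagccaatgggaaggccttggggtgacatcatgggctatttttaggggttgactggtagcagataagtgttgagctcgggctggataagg
JUND promoter, chr19:18281623-18281872, minus strand: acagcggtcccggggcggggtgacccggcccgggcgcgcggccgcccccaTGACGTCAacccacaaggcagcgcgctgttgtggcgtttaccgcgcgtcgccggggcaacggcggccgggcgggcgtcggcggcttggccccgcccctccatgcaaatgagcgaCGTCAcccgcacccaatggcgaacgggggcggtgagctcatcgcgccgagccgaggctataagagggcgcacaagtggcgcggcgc
RefSeq windows of 250 bases before to 50 bases after the start were matched for 9 of the 10 genes (10 windows, since ATF3 had 2). The CRE core TGACG, read on both strands and contained in the full CRE, lay in the windows of 7 of these genes (JUN, JUNB, JUND, FOS, FOSL2, EGR1 and IER2) and in 24.6% of all 35116 promoters. The full CRE was found at JUND alone among the 9 and in 1.85% of promoters. EGR1 held both copies of the CArG box seen in the windows of the 9 genes, from -105 to -96 and from -83 to -74 bp, against 1.29% of promoters with any. Bases outside these windows were not searched for such sites, so their absence from a gene is not shown. The AP-1 site TGANTCA was found at FOSL2 (7.71% of promoters), the SP/KLF box GGGCGG at 7 of the 9 genes (45.0% of promoters), and the EGR1 site GCGTGGGCG at 0 of the 9 (0.795% of promoters). These are exact matches of letters in the reference and not measured binding, and variants of a site with other letters or spacing were not counted.

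All 10 genes had at least 1 loop in mock-treated cells, as did 80.9% of 20007 protein-coding genes with the same window. After PDS 7 of the 10 had a loop, beside 54.2% of all genes. The mock loops per gene ran from 1 at ATF3 and KLF10 to 10 at IER2, with a median of 4.50, and the median over all genes was 4 (quartiles 1 and 7, maximum 150). In the number of their loops the 10 genes thus lay in the body of the distribution over all genes, and 82.5% of genes had fewer mock loops than IER2, the member with the most.

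**Figure D1:**
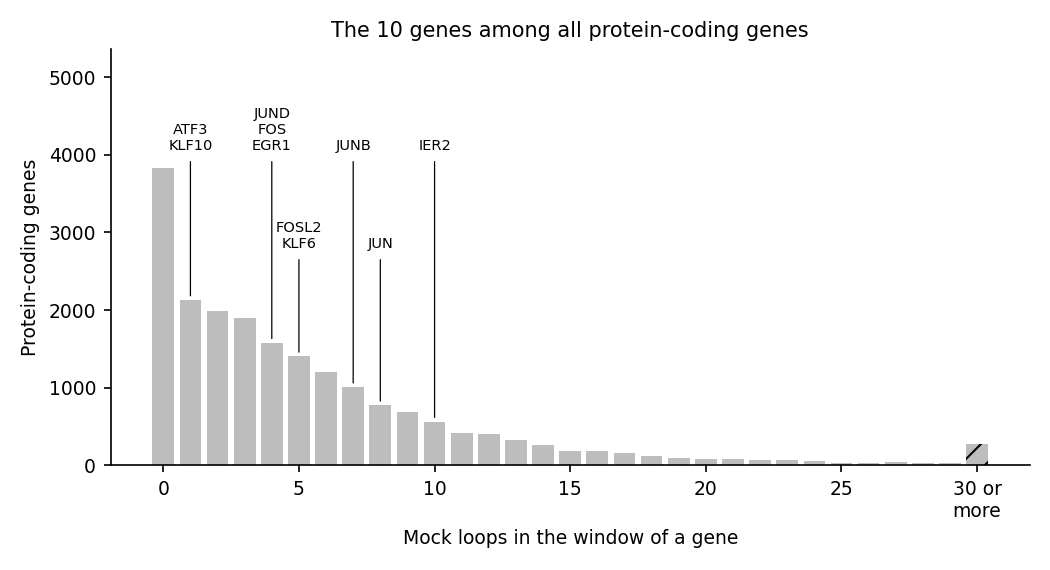
Number of protein-coding genes (y axis) by the number of mock loops in the gene window (x axis, loops), with the position of each of the 10 genes marked by a line and its name. The genes lie between 1 and 10 loops, where most of the 16180 genes with any mock loop also lie, and the last bar pools genes with 30 loops or more.

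The 49 mock loops stood against 17 loops after PDS, a ratio of 0.347 (0.201 to 0.598), and their 193 PETs against 55, a ratio of 0.285 (0.211 to 0.384). All other loops went from 66368 to 18761, a ratio of 0.283 (0.278 to 0.287), and their PETs by a ratio of 0.263 (0.261 to 0.265). The intervals of the 10 genes included the ratios of all other loops, so no difference from the whole list was detectable with this number of loops. Counted from 4 PETs upward the loops went from 21 to 2, a ratio of 0.0952 (0.0248 to 0.366), beside 0.204 for other loops with as many, and their PETs from 109 to 10, a ratio of 0.0917 (0.0485 to 0.173), beside 0.199. Both of these PDS loops held 5 PETs, and PETs are grouped in loops, so the interval of a PET ratio may be too narrow. From 5 PETs upward the loops went from 9 to 2, a ratio of 0.222 (0.0541 to 0.912). Other loops with 5 PETs or more went from 12221 to 1822, so the lower ratio of the 10 genes was not seen at that minimum. Fewer joined fragments per cell, fewer cells and shallower libraries cannot be told apart in these counts. Fewer loops were listed after PDS at 9 of the 10 genes, beside 94.0% of the 16180 genes with a mock loop, and KLF10 had 1 loop in either list. More loops after PDS were listed at 0 of the 10, beside 2.64% of all genes.

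The chromosomes of the members differed in their own loop ratios, from 0.203 (0.180 to 0.228) on chromosome 19, which holds JUNB, JUND and IER2, to 0.369 (0.348 to 0.390) on chromosome 14, which holds FOS. Against these, the genes on chromosome 19 went from 21 to 6 loops, a ratio of 0.286 (0.119 to 0.688), and the other 7 genes from 28 to 11, a ratio of 0.393 (0.198 to 0.779). FOS had 4 loops before and 0 after PDS, and the interval of its ratio (0 to 0.960) included the ratio of chromosome 14.

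**Figure D2:**
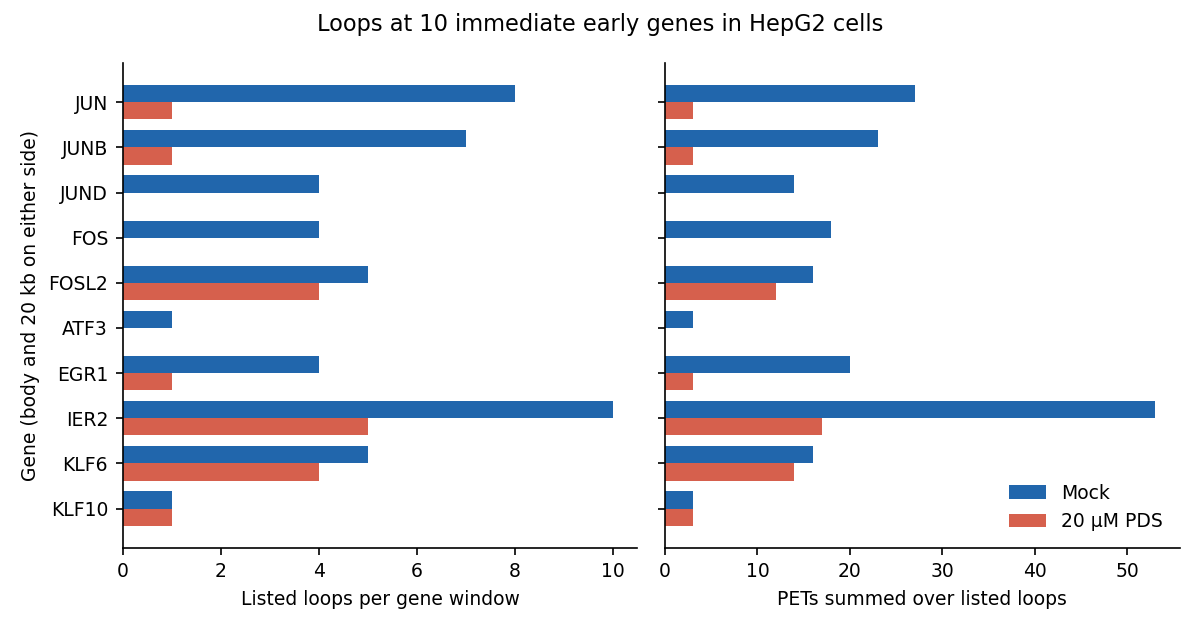
Listed loops (left, x axis) and PETs summed over them (right, x axis) in the window of each gene in mock-treated (blue) and PDS-treated (red) cells, with 1 combined list per condition and no error bars. IER2 has most loops in either list, 10 and 5, and JUND, FOS and ATF3 have 0 after PDS.

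JUN family proteins form AP-1 dimers with one another or with FOS proteins. JUN (ENSG00000177606, chr1:58776845-58784048, minus strand) had 8 mock loops with 27 PETs and, after PDS, 1 loop with 3. Its start site lay in an anchor of 17549 bp, wider than 97.2% of anchors, which covered the whole gene and joined 6 mock loops, more than 97.1% of mock anchors. The counts of these 6 loops were 3, 3, 4, 3, 3 and 3 PETs. Promoters of long noncoding RNAs (lncRNAs) and of no coding gene lay in 3 of the 6 partners, namely ENSG00000283445 at 47.3 kb, LINC01135 with ENSG00000272226 at 41.5 kb, and LINC01358 with LINC02777 at 160 kb. The JUN anchor itself also held promoters of the lncRNAs LINC01135 and ENSG00000290013. The loop at 41.5 kb thus had LINC01135 promoters at both ends. The farthest partner lay 913 kb away in the body of FGGY, a carbohydrate kinase gene. The loop to ENSG00000283445 had 3 PETs in both lists, and it was the only JUN loop listed after PDS.

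JUNB (ENSG00000171223, chr19:12791486-12793315, plus strand) had 7 loops and 23 PETs in mock-treated cells, against 1 loop and 3 PETs after PDS. It sits among 14 other protein-coding genes within 100 kb, and its anchor of 8656 bp also held a promoter of HOOK2, a gene for an adaptor of microtubule transport. The 4 loops of that anchor had 3, 3, 4 and 3 PETs in mock-treated cells and were unlisted after PDS. All 4 partners were promoters of coding genes: PRDX2, a peroxide-reducing enzyme, with THSD8 at 8.70 kb (4 PETs), HOOK2 at 14.7 kb, MAST1, a kinase, at 62.3 kb, and TNPO2, a nuclear import receptor, at 70.8 kb. The 1 loop seen in both lists joined a region downstream of JUNB to an anchor with promoters of MAST1 and RTBDN at 15.2 kb, with 4 PETs before and 3 after PDS.

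JUND (ENSG00000130522, chr19:18279694-18281622, minus strand) had 4 loops with 14 PETs in mock-treated cells and 0 loops after PDS. Both loops of its promoter anchor led to LSM4, a gene for a subunit of an RNA-processing ring, at 36.6 and 41.8 kb with 4 PETs each. The other pair had 3 PETs each and started at the neighbouring IQCN promoter, with partners at PDE4C and PGPEP1. All 4 counts lay at 3 or 4, so the step to the unlisted range of up to 2 PETs was small at any single loop.

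FOS proteins bind DNA as partners of JUN proteins. FOS (ENSG00000170345, chr14:75278826-75282230, plus strand) had 4 mock loops with 5, 5, 4 and 4 PETs and 0 loops after PDS. It had 0 other coding genes within 100 kb, and both partners of its promoter held lncRNA promoters only. One promoter loop of 5 PETs reached 19 kb upstream to an anchor with promoters of ENSG00000258820 and ENSG00000289340, and the other reached 15.2 kb downstream to the promoter of LINC01220. The LINC01220 anchor also joined a region just downstream of FOS (4 PETs, 7.68 kb) and a distant anchor in TMED10 (4 PETs, 156 kb). Among all other mock loops with 5 PETs, 18.3% were listed after PDS, so absence of loops with that count was common.

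FOSL2 (ENSG00000075426, chr2:28392448-28417317, plus strand), another FOS family gene, had 16 PETs in 5 mock loops and 12 PETs in 4 PDS loops. Its promoter anchor covered an internal start site but not the start of the canonical transcript. The loop from this anchor to a site inside the gene at 8.05 kb had 4 PETs in the mock list and 3 in the PDS list. The other 4 mock loops, including 1 to the promoter of PLB1, a phospholipase gene, at 23.1 kb, had 3 PETs each and were unlisted after PDS, and the other 3 PDS loops had 3 PETs each and were unlisted in mock-treated cells. These 3 reached 17.7, 475 and 624 kb. A change between 3 PETs and unlisted was not detectable at this depth for any single loop, so the near-equal numbers at FOSL2 came mostly from different loops at the listing minimum.

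ATF3, a stress-induced factor of the ATF family (ENSG00000162772, chr1:212565334-212620777, plus strand), had 1 mock loop of 3 PETs from its gene body to PPP2R5A at 231 kb, and 0 loops after PDS. It had 0 loops at a promoter in either list, although the annotation gives it 7 transcript starts.

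EGR1 (ENSG00000120738, chr5:138465479-138469303, plus strand) encodes a zinc finger factor that is induced by growth signals through serum response factor. In mock-treated cells it had 4 loops with 20 PETs, and after PDS it had 1 loop with 3. All 4 loops shared 1 anchor at chr5:138462837-138473498 that covered the whole gene. The counts in mock-treated cells were 7 PETs to a site downstream at 22.9 kb, 5 PETs each to a pair of sites in ETF1, a translation release factor gene, at 38.1 and 60.2 kb, and 3 PETs to a site upstream at 14.1 kb. The loop of 7 PETs had 3 after PDS, a ratio of 0.429 (0.121 to 1.52), and the other 3 were unlisted. Only the strongest EGR1 loop was thus listed after PDS, and the interval of its ratio included 1. Of all other mock loops with 7 PETs, 34.6% were listed after PDS, with a median of 4 PETs.

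IER2 (ENSG00000160888, chr19:13150411-13154911, plus strand) had the most loops, 10 with 53 PETs in mock-treated and 5 with 17 PETs in PDS-treated cells. Its promoter anchor, which also held a promoter of STX10, a syntaxin gene, had 3 loops in mock-treated cells. The loop to the shared promoter region of NACC1, a transcriptional regulator, and TRMT1, a tRNA methyltransferase, at 32.9 kb had 5 PETs and then 3 after PDS, a ratio of 0.6 (0.159 to 2.27). The other promoter loops, to NACC1 at 22.0 kb and to TRMT1 at 42.8 kb, had 3 PETs each and were unlisted after PDS.

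The strongest loops of the whole set lay in the surroundings of IER2 and not at its promoter. A loop between NACC1 and the NACC1 and TRMT1 promoter region, 10.9 kb long, had 12 PETs and then 5 after PDS, with a ratio of 0.417 (0.153 to 1.13). A loop of 5.27 kb downstream of IER2 had 12 and then 3 PETs, a ratio of 0.250 (0.0758 to 0.824), and of the 9 loops in both lists it was the only one whose own interval lay below 1. Among the other mock loops with 12 PETs, 39 of 69 were listed after PDS, with a median of 4 PETs. A loop between STX10 and NACC1 had 3 PETs in both lists. IER2 therefore held 4 of the 9 loops listed in both conditions, 3 of them among the promoters of IER2, STX10, NACC1 and TRMT1.

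**Figure D3:**
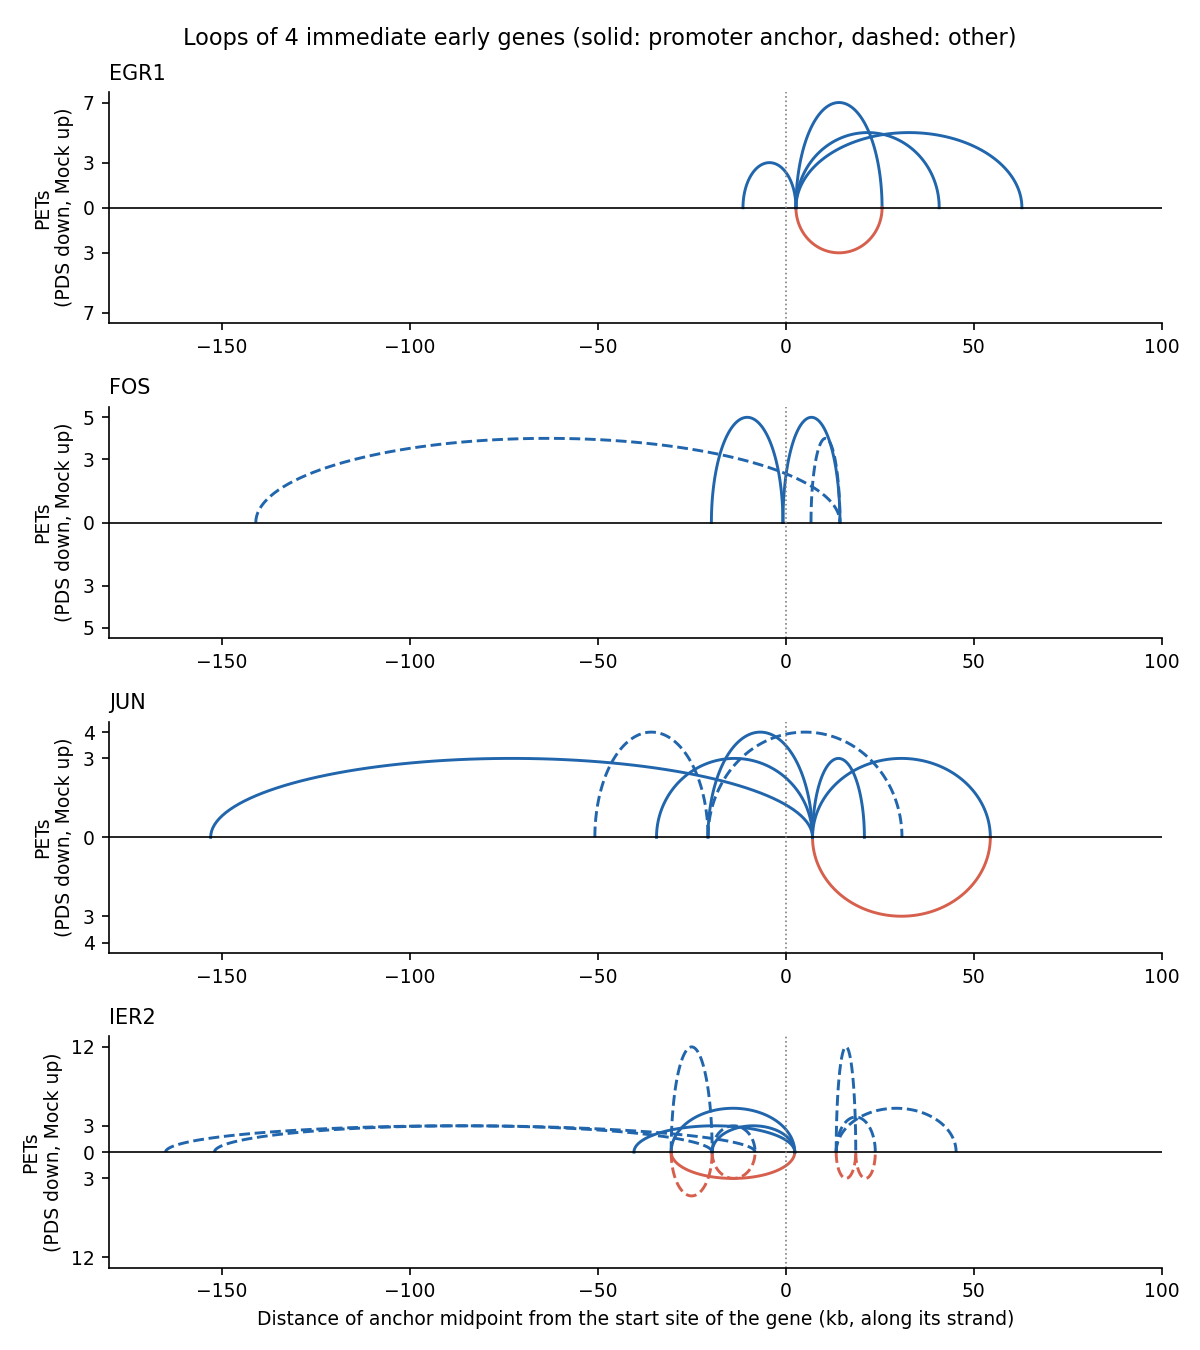
Loops of EGR1, FOS, JUN and IER2 drawn as arcs between anchor midpoints by their distance from the canonical start site (x axis, kb, along the strand of the gene), above the line in mock-treated (blue) and below it in PDS-treated (red) cells, with the arc height giving the PETs and dashed arcs for loops without a promoter anchor of the gene. The 913 kb loop of JUN lies outside the range drawn, the 4 EGR1 arcs leave 1 anchor, and FOS has 0 arcs after PDS.

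KLF6 (ENSG00000067082, chr10:3775996-3785281, minus strand) and KLF10 (ENSG00000155090, chr8:102648784-102655725, minus strand) are Krüppel-like factors, and KLF10 is known as a target of TGF-beta signalling. At KLF6 16 PETs in 5 loops were listed in mock-treated cells and 14 PETs in 4 loops after PDS. The loop from its promoter to the lncRNA gene ENSG00000287175 at 29.9 kb had 3 PETs in both lists. The same partner anchor took part in the strongest loop listed only after PDS, which had 5 PETs over 12.7 kb upstream of KLF6 and was unlisted in mock-treated cells. That loop was 1 of the 2 PDS loops with 5 PETs or more, and over the whole list 29.3% of the 1824 PDS loops with 5 PETs or more were not in the mock list. A further promoter loop of 9.44 kb and a loop of 11.8 kb downstream, with 3 PETs each, were also listed only after PDS, and the other 4 mock loops, with 3 to 4 PETs, were unlisted.

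KLF10 had 1 loop of 3 PETs in either list, and the loops differed. In mock-treated cells it reached 123 kb to a region without an annotated promoter, and after PDS a loop from the other flank reached 192 kb to AZIN1, a regulator of polyamine synthesis. Neither touched the KLF10 promoter.

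Among the 5 genes with at least 5 mock loops (JUN, JUNB, FOSL2, IER2 and KLF6), PDS loops numbered at most 0.5 of the mock loops at 3, beside 93.6% of the 8584 genes with as many mock loops. At FOSL2 and KLF6 the ratio was 0.8 (0.233 to 2.75). None of the 5 had as many PETs after PDS as before, which 0.151% of the 8584 genes had, and none had 0 loops after PDS, beside 17.3%. The per-gene loop ratios could not be ordered at this depth: the lowest among these 5, 0.125 (0.0203 to 0.770) at JUN, and the 0.8 of FOSL2 and KLF6 had overlapping intervals. The PET ratios were 0.111 (0.0358 to 0.344) at JUN, 0.130 (0.0417 to 0.408) at JUNB and 0.321 (0.187 to 0.550) at IER2. At FOSL2 the PET ratio was 0.750 (0.361 to 1.56) and at KLF6 0.875 (0.433 to 1.77), with intervals above that of JUN. PETs are grouped in loops, so these intervals may be too narrow, and the difference was not tested.

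The same loops were followed between conditions by matching both anchors. Of the 49 mock loops, 9 were listed after PDS (18.4%, 9.98 to 31.4%), beside 11.0% of all mock loops, and 8 of the 17 PDS loops were not in the mock list, beside 60.9% of all PDS loops. The 9 loops belonged to 6 genes (36.0% of genes with a mock loop had such a loop). Their counts were lower after PDS at 6 loops, equal at 3 and higher at 0, and of the 7324 other loops in both lists 55.3% were lower and 14.6% higher.

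Listing after PDS depended on the mock count. Of mock loops with 4 PETs or more, 6 of 21 were listed after PDS with any count (28.6%), beside 18.6% of other loops. Of those with 3 PETs, 3 of 28 were listed after PDS (10.7%), beside 5.97% of other loops with 3 PETs. With 4 PETs it was 2 of 12 (16.7%, others 11.6%), with 5 to 9 PETs 2 of 7 (28.6%, others 24.9%), and with 10 or more 2 of 2 (others 62.5%). The loops of the 10 genes followed the same order as other loops, and with so few loops the intervals of all 4 classes were wide.

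**Figure D4:**
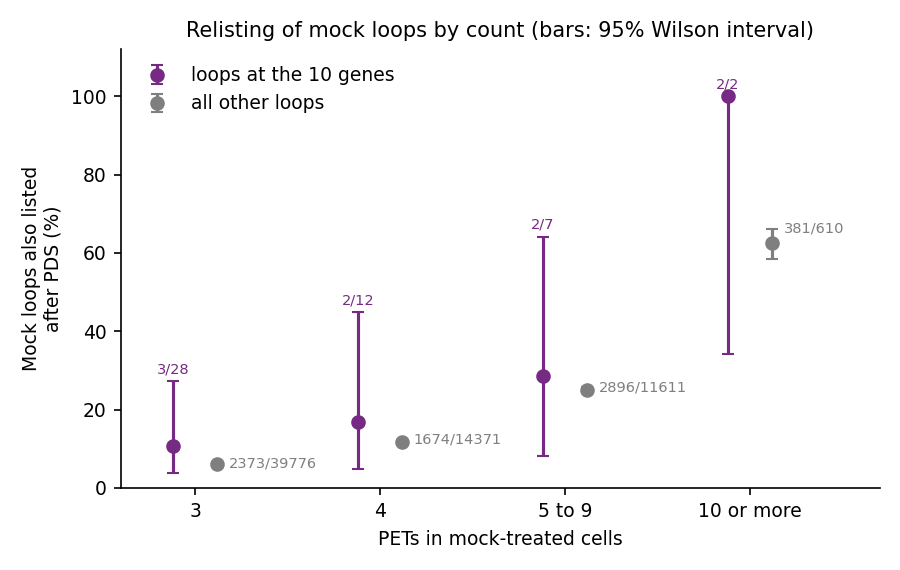
Share of mock loops that were also listed after PDS (y axis, percent) by their PETs in mock-treated cells (x axis), for loops at the 10 genes and for all other loops, with loops listed over loops in the class beside each point and 95% Wilson intervals as bars. Both sets rise with the count, from 3 of 28 to 2 of 2 at the 10 genes.

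**Figure D5:**
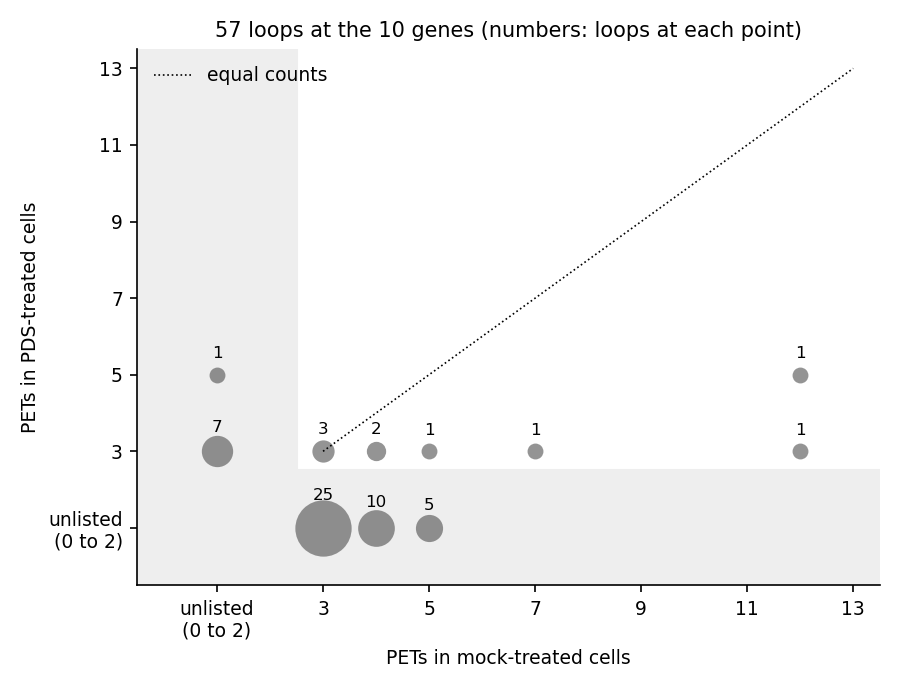
PETs in PDS-treated cells (y axis) against PETs in mock-treated cells (x axis) for the 57 distinct loops, with circles whose area and number give the loops at each pair of counts, unlisted loops drawn at the position marked 0 to 2, and a dotted line of equal counts. Most loops lie at 3 PETs in 1 list and unlisted in the other, and both loops with 12 PETs belong to IER2.

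Most counts were low: 28 of the 49 mock loops (57.1%) and 15 of the 17 PDS loops had 3 PETs, and 59.9% of other mock loops did. Loops with 5 PETs or more numbered 9 before and 2 after PDS, and the highest count was 12 and then 5. The mock loops of the 10 genes spanned a median of 30.1 kb, beside 17.4 kb for other loops, and the PDS loops 15.2 kb, beside 17.2 kb. By distance, the loops of 5 to 20 kb went from 17 to 10, a ratio of 0.588 (0.274 to 1.26; other loops 0.288), and those over 20 kb from 32 to 7, a ratio of 0.219 (0.0986 to 0.485; other loops 0.277). The point estimate was higher for the shorter loops, but the intervals of these loop ratios overlapped. The PET ratio was 0.436 (0.292 to 0.650, other loops 0.264) at 5 to 20 kb and 0.183 (0.115 to 0.290, other loops 0.262) over 20 kb. These PET intervals did not overlap, but PETs are grouped in loops, so the intervals may be too narrow. The differences between the distance classes were not tested.

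The loops divided almost evenly between promoters and surroundings. In mock-treated cells 24 loops with 91 PETs touched a promoter of the member gene, 1 touched the body only and 24 touched a flank only. Promoter loops went to 7 with 21 PETs after PDS, a ratio of 0.292 (0.129 to 0.661), and the remaining loops from 25 to 10, a ratio of 0.400 (0.195 to 0.820). Other loops with a coding promoter in an anchor had a ratio of 0.254 (0.248 to 0.261), which lay within the interval of the promoter loops. By gene, promoter loops before and after PDS numbered 6 and 1 at JUN, 4 and 0 at JUNB, 4 and 1 at EGR1, 3 and 1 at IER2, 2 and 2 at KLF6, 1 and 2 at FOSL2, 2 and 0 at JUND and at FOS, and 0 at ATF3 and KLF10.

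The edge of the gene window held weak loops on either side. Of loops whose nearest anchor lay 15 to 20 kb from the gene body, 3 mock loops had 3 to 4 PETs and 1 PDS loop had 3, and just beyond it, at 20 to 25 kb, 6 mock loops had 3 to 6 PETs and 3 PDS loops had 3 to 4.

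Of the 24 promoter loops in mock-treated cells, 9 (37.5%, 21.2 to 57.3%) had a promoter of another coding gene in the partner anchor. Among other loops with a coding promoter in either anchor, 27.7% had one in both. That share counts each loop once, whereas a loop joining a pair of promoters is met from either promoter. A share taken from promoter anchors would be higher, so the 37.5% and 27.7% are not like for like. All 9 promoter loops with such a partner came from 3 anchors, those of JUNB, JUND and IER2. At JUNB, JUND and IER2, all on chromosome 19, 9 of 9 promoter loops thus had such a partner (100%, 70.1 to 100%). At the other genes 0 of 15 did (up to 20.4%): 6 partners held lncRNA promoters only, 4 lay in bodies of coding genes and 5 held no such feature. After PDS it was 1 of 1 promoter loops on chromosome 19 and 0 of 6 at the other genes. Loops share anchors, so these shares rest on fewer independent regions than loops. Counted once per loop as above, other loops with a coding promoter had one in both anchors in 41.1% (38.3 to 43.9%) on chromosome 19 and in 27.1% on the other chromosomes. The density of genes moved with this: JUNB, JUND and IER2 had 14, 9 and 6 other coding genes within 100 kb, and the other 7 had 0 to 4. Its part in the partners was not tested.

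Predicted G4 motifs (4 runs of 3 or more G, separated by 1 to 7 bases, read on both strands) were counted in the reference sequence of the anchors because PDS binds such structures. They are sequence motifs and not measured structures. All 9 promoter anchors of the genes held at least 1, with 60 in all and from 1 to 13 per anchor. The motif nearest upstream of the canonical start is shown for the 7 genes whose anchor held that start, on the strand that carries the G runs, with the runs in capitals.
JUN motif, chr1:58784302-58784326, minus strand: GGGGaGGGGaccGGGGaagagaGGG
JUNB motif, chr19:12789775-12789793, plus strand: GGGGtGGGGcGGGGccGGG
JUND motif, chr19:18281948-18281967, minus strand: GGGGcctcGGGGcGGGcGGG
FOS motif, chr14:75277138-75277156, plus strand: GGGGagctGGGaGGGaGGG
EGR1 motif, chr5:138465264-138465287, plus strand: GGGcgcctGGGatgcGGGcgcGGG
IER2 motif, chr19:13149902-13149931, plus strand: GGGcaGGGGcacggcGGGcgcggctGGGGG
KLF6 motif, chr10:3785335-3785357, minus strand: GGGccGGGagccacGGGattGGG
These motifs lay from 137 bp (KLF6) to 1702 bp (JUNB) upstream. The motif of EGR1 at 204 bp is part of the promoter printed above, and that of JUN lay on the minus strand 267 bp upstream, just beyond the bases printed. Within the RefSeq windows the motif was found at FOSL2, EGR1 and KLF6, and in 25% of all promoters. EGR1 had most motifs, 13 in 10662 bp, and the KLF6 anchor with the canonical start had most per length, 1.49 per kb.

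At the level of loops, 49 of 49 mock loops (100%, 92.7 to 100%) and 16 of 17 PDS loops (94.1%, 73.0 to 99.0%) held a motif in at least 1 anchor, beside 75.2% and 75.5% of other loops. Other values moved with this share. A coding promoter lay in an anchor of 67.3% of the mock loops of the genes and of 46.0% of other mock loops. Of the 72 anchors of these loops 54 held a motif (75%, 63.9 to 83.6%), with a median width of 7012 bp and 49.2% GC, beside 47.3% of other anchors, with 5820.5 bp and 42.9% GC, and 66.5% of other promoter anchors, with 6621 bp and 47.3% GC. The part of width, GC content and promoters in the share was not tested.

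A wider set of 43 genes, made up of AP-1 relatives, other immediate early genes and upstream factors, was counted in the same windows. Of these 39 had a mock loop, beside 80.9% of all protein-coding genes. Fewer loops after PDS were listed at 38 of the 39, beside 94.0% of genes with a mock loop. More loops were listed at 0 of the 43, beside 2.64% of all genes. Their loops went from 373 to 72, and those of the whole lists from 66417 to 18778. The 11 AP-1 relatives went from 105 to 17 loops, with fewer at all 11. MAFG, a small MAF protein, went from 24 loops with 103 PETs to 4 with 19, ATF2, a CRE-binding partner of JUN, from 22 with 90 to 1 with 3, and FOSB, the FOS paralog on chromosome 19, from 16 with 64 to 1 with 3.

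The 11 other immediate early transcription factors went from 80 to 19 loops, with fewer at 8 of the 9 that had a mock loop. CEBPB, a leucine zipper factor of liver acute phase genes, went from 34 loops with 142 PETs to 9 with 33, EGR4 from 13 with 43 to 4 with 14, and IRF1, an interferon-induced factor, from 12 with 41 to 2 with 10. Serum response factor, its partners and CREB1 (7 genes) went from 85 to 15, with fewer at all 6 that had a mock loop. MRTFB, an actin-regulated coactivator of serum response factor, had 42 loops with 178 PETs before and 11 with 36 after. CREB1, a factor that binds CRE sequences, went from 14 with 51 to 1 with 3, and MRTFA from 11 with 48 to 1 with 3. The 14 genes of other function went from 103 to 21 loops, with fewer at all 13 that had a mock loop. IER3, a survival factor, went from 17 with 74 to 2 with 7, and CCN2, a matrix protein, from 15 with 67 to 2 with 7. DUSP1, a phosphatase that ends MAP kinase signals, went from 14 with 57 to 0. All 4 groups had fewer loops after PDS, the direction seen at 94.0% of genes with a mock loop.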

How the data were processed

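POLR2A HiChIP-seq of HepG2 cells was deposited as 2 loop lists, Mock and PDS, each combining 2 replicates of the 4 libraries. The authors deposited whole-number counts of PETs per loop, without scaling for depth. The submitters' processing notes name GRCh38 and HiC-Pro 3.1.0, and by the study's methods reads were deduplicated and assigned to MboI fragments. The tool that set the anchors and the way replicates were combined are not given in the sources used here. The study's supplement gives a minimum of 3 PETs, which was also the lowest value in both lists. No list was filtered or rescaled.

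Loops were assigned to genes of GENCODE 44 (GRCh38) by overlap of an anchor with the gene body or 20 kb on either side (at least 1 bp), and a promoter was 1 kb on either side of any annotated start. Loops of both lists were matched by overlap of both anchors (at least 1 bp). For each PDS/mock ratio, the share of PDS in the sum of both counts was given a 95% Wilson interval, and its bounds were turned into bounds of the ratio, for counting error only. Distances are between anchor midpoints. The build was checked: of 81742 anchors 81739 had the MboI site GATC within a few bases of the start and 81740 within a few bases of the end. The anchors on all 44 reference sequences that held any, unplaced contigs included, lay within the reference lengths. On 4942 simulated loops the matching recovered 984 of 984 shared loops with 0 false calls. The shared loops were made as exact copies and the others without overlap of both anchors. The simulation thus checked the code only, and not matching by partial overlap in the real lists. The 10 genes and all lists of genes were chosen with earlier results of these data known. Partner genes were to be named where a coding promoter lay in the partner of 1 of the 3 loops of a gene with most PETs, or of a loop in both lists, and of the other immediate early genes the 3 of each group with most mock PETs. FGGY, ETF1, HOOK2, MAST1 at 62.3 kb, PPP2R5A, TMED10, PDE4C, IQCN and the lncRNAs were named after their values were seen.

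Alternatives were other PET minimums, windows, distances, matching rules, promoter widths and motif definitions, PETs divided by list totals and leaving out each gene. BG4 ChIP-seq, RNA-seq and other assays were not analysed here. Computations used scipy 1.17.1, pandas 2.3.3, numpy 2.4.6 and matplotlib 3.10.9 in Python 3.11.15.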

Additional observations from a re-analysis of the deposited data

How the results depend on the processing

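No paired analysis was possible because the replicates of a condition were combined in 1 list, and leaving out each replicate was not run for the same reason. The loop ratio of the 10 genes (0.347) was 0.0952 with at least 4 PETs, 0.222 with at least 5, 0.588 for loops of 5 to 20 kb, 0.219 over 20 kb, and 1.23 relative to the ratio of all other loops. The PET ratio (0.285) was 0.0917 with at least 4 PETs, 0.164 with at least 5, 0.436 for loops of 5 to 20 kb, 0.183 over 20 kb, and 1.08 (0.804 to 1.46) after division by the list totals. With at least 4 PETs it lay below that of other loops (0.199). For loops of 5 to 20 kb its interval (0.292 to 0.650) lay above the ratio of other loops (0.264). With at least 5 PETs the loops of the 10 genes went from 9 to 2 and other loops from 12221 to 1822. The loop ratio of 0.222 thus did not lie below that of other loops at that minimum. The share of mock loops also listed after PDS (18.4%) was 4.76% with at least 4 PETs required in both lists, against 28.6% with that minimum in the mock list only, 11.1% with at least 5 PETs in both, 29.4% for loops of 5 to 20 kb and 30.6% with anchors extended by 5 kb. The median of 4.50 mock loops per gene was 2 without a margin, 7.50 with 50 kb, 2 for promoters only, 2 with at least 4 PETs and 0 with at least 5. The motif share was 24.5% (12 of 49 mock loops) with runs of at least 4 G. No share of other loops is given for that motif, so the contrast with other loops is not shown under it. Of all 49 mock loops, at promoters or not, 17 had a coding promoter in the partner anchor (34.7%), and with at least 5 PETs this share was 22.2%. No share of other loops is given for these values either. Leaving out 1 gene gave loop ratios of 0.295 (without FOSL2) to 0.390 (without JUN), PET ratios of 0.232 (without KLF6) to 0.314 (without FOS) and shares of 12.8% (without IER2) to 20.0% (without JUND or FOS). The cause of these shifts was not tested. Within the interval of the main value lay 18 of 20 alternatives for the loop ratio, 15 of 20 for the PET ratio and 20 of 21 for the share. Counts of 3 to 5 PETs per loop limit statements on single loops, and unlisted loops can hold up to 2 PETs.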
